A study of Mus musculus with 4 samples.

Results

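Histone deacetylases remove acetyl groups from lysines of histones and other proteins. Class I enzymes (Hdac1, Hdac2, Hdac3 and Hdac8) are nuclear, and Hdac1, Hdac2 and Hdac3 work inside large corepressor complexes. Class IIa enzymes (Hdac4, Hdac5, Hdac7 and Hdac9) shuttle between nucleus and cytoplasm and bind Mef2 transcription factors, Hdac6 is a class IIb enzyme that acts on tubulin, and Hdac11 is the single class IV enzyme. In cultured rodent embryonic pancreas, deacetylase inhibitors are known to shift the balance of exocrine and endocrine cells. N6-methyladenosine (m6A) is the most frequent internal mark of messenger RNA, and Mettl3 is the catalytic subunit of the complex that writes it.

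The 10 genes described here are Hdac1 to Hdac9 and Hdac11, taken by gene name from the m6A site lists of mouse pancreas at E15.5, by a rule that uses no measured value. The family was picked with earlier results of these data known. The lists name 5934 genes in all. In the KO embryos Mettl3 was deleted in Pdx1-positive pancreatic progenitors (Mettl3pKO), and the WT embryos were wild type. The driver line, the floxed allele, the strain and the number of embryos per library are not stated in the labels, and pancreatic cells outside the Pdx1 lineage were not targeted. Each genotype had 1 MeRIP library, in which an m6A antibody pulled down RNA fragments of about 200 nt, and 1 input library without pull-down. The deposited values therefore have no replicates, and no test between genotypes was possible.

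In pancreata of KO embryos 1 m6A site was listed in the family, in Hdac2, against 7 sites in WT embryos. The whole KO list was also the shorter one, with 3937 sites against 10514 in WT. The WT sites lay in 4 genes, with 3 in Hdac2, 2 in Hdac1, 1 in Hdac3 and 1 in Hdac4. The KO site of Hdac2 covered exactly the same interval as 1 of its WT sites. Hdac1, Hdac3 and Hdac4 were listed in WT only, and Hdac5, Hdac6, Hdac7, Hdac8, Hdac9 and Hdac11 had no listed site in either genotype. No member was listed in KO only.

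These counts were read against the same shares over the whole lists. A KO site was listed for 1 of the 10 members and for 12.3% of all protein-coding genes, and a WT site for 4 of the 10 members and for 22.6% of all protein-coding genes. Among the 4 WT-listed members 1 was listed in KO too, 25% with an exact binomial 95% interval of 0.631 to 80.6%, beside 37.9% of all 5085 WT-listed genes. The 1 KO-listed member was listed in WT too, as were 69.4% of all KO-listed genes. Of the 7 WT sites in the family 1 had a KO counterpart, 14.3% (exact 95% interval 0.361 to 57.9%), beside 12.2% of all 10514 WT sites. The 1 KO site of the family had a WT counterpart, as did 32.6% of all 3937 KO sites. Both intervals contain the share of the whole list, but with so few members they would contain most shares and decide nothing. The intervals cover counting over genes or sites only, which are not replicates of a genotype.

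Hdac2 encodes a class I catalytic subunit that is shared by the NuRD, Sin3 and CoREST corepressor complexes. Its gene spans 27593 bp on the plus strand of chromosome 10 (36974297 to 37001889 in mm10, the build of all coordinates here). In KO the site lay at 36986307 to 36986424, a width of 118 bp, with a fold enrichment of MeRIP over input of 5.99. The score of a site is the p-value of the peak caller on a negative log10 scale times 10, and this KO site had a score of 66.7. In WT the same interval was listed with a fold enrichment of 8.76 and a score of 59.56. The fold enrichment thus had the larger number in WT and the score had the larger number in KO, and all these values are the authors' own for single peaks, without an error. By fold enrichment the site was ordinary, at percentile 44.7 among the 3937 KO sites and at percentile 64.1 among the 10514 WT sites. By score it lay at percentile 45.6 in KO but at percentile 18.5 in WT, and by width at percentile 17.5 in both.

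The other 2 Hdac2 sites were listed in WT only. The middle site, at 36989150 to 36989288, had a fold enrichment of 8.89 and a score of 62.33. The site nearest to the gene end, at 36991757 to 36991898, had a fold enrichment of 9.81 and a score of 130.97. The interval found in both genotypes was therefore the WT site of Hdac2 with the lowest fold enrichment and the lowest score of the 3, and also the nearest to the gene start. It began 12010 bp after the start, and the 3 sites were separated by gaps of 2725 and 2468 bp. All 3 were short, at 118, 139 and 142 bp, beside a median width of 203 bp in the WT list. The false discovery rates in WT were 9.91%, 9.86% and 14.28%. For the KO site the rate was 47.28%, where the KO list had a lowest rate of 45.92% and a median of 48.44%. The median of the WT list was 10.62%. In WT the Hdac2 site with the highest score (130.97) had the highest rate of the 3 (14.28%). Among these 3 sites a low rate therefore did not mark a stronger peak.

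Hdac1 encodes the closest relative of Hdac2 and occupies the same complexes. It had 0 sites in KO and 2 in WT. The WT site at 129542581 to 129542713 on chromosome 4 had a fold enrichment of 14.9, the highest in the family and percentile 98.4 of the WT list. Its score of 101.42 was less extreme, at percentile 62.9. This interval crossed the upper end of the annotated Hdac1 gene (129516104 to 129542646) and reached 67 bp beyond it, and the file assigned it to an Ensembl transcript rather than to the RefSeq transcript of the other site. The other WT site, at 129534614 to 129534726, lay 7854 bp below it and had a fold enrichment of 7.05 and a score of 78.07. The 2 sites of Hdac1 differed more in fold enrichment than the 3 sites of Hdac2, which lay between 8.76 and 9.81. The synonyms given for Hdac1 include a pseudogene name (Hdac1-ps). How reads that align to several places were treated is not stated in the labels or headers, so the Hdac1 values are uncertain to that extent.

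Hdac3 encodes the catalytic subunit of the Ncor1 corepressor complex. It had 0 sites in KO and 1 in WT, on chromosome 18 at 37937014 to 37937683. The WT site began 43 bp above the lower end of the annotated gene (37936971 to 37955015) and was 670 bp wide. Its fold enrichment of 4.44 was the lowest in the family and lay at percentile 1.93 of the WT list, whereas its score of 99.78 lay at percentile 62. The Hdac3 site and the stronger Hdac1 site thus stood at opposite ends of the WT range of fold enrichment with nearly the same score.

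Hdac4, a class IIa enzyme held in the cytoplasm when it is phosphorylated, was the only member outside class I with a listed site. It had 0 sites in KO and 1 in WT, at 91932749 to 91933386 on chromosome 1, with a fold enrichment of 9.74 and a score of 74.61. Hdac4 is a gene of 266924 bp on the minus strand (91928779 to 92195702), and the site ended 3970 bp before the gene end. At 638 bp this site and the Hdac3 site were the wide ones, at percentiles 75.4 and 76.4 of width in the WT list. For the other 5 WT sites the width ran from 113 to 142 bp. No other gene of the RefSeq table overlapped any of the 8 listed intervals. Exon and UTR annotation and the genome sequence were not used here, so whether these intervals are exons, and which motif they hold, is not given.

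**Figure D1:**
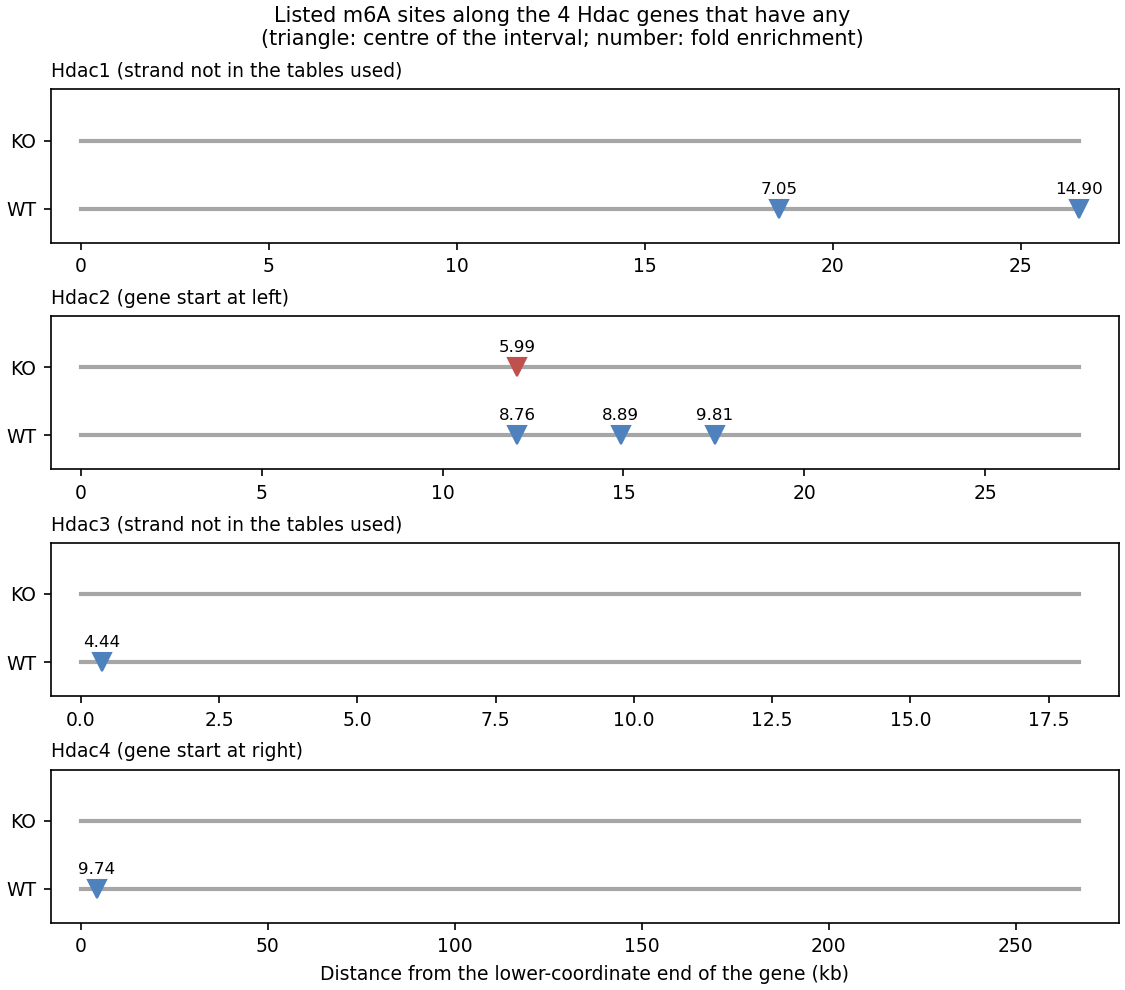
Place of the listed sites along Hdac1, Hdac2, Hdac3 and Hdac4, as distance in kb from the lower-coordinate end of each gene, with KO above WT. Triangles mark interval centres and are not drawn to the width of the site, and the numbers are fold enrichments. The KO site of Hdac2 (5.99) stands at the same place as the first of its 3 WT sites (8.76), and the other 3 genes carry WT sites only.

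**Figure D2:**
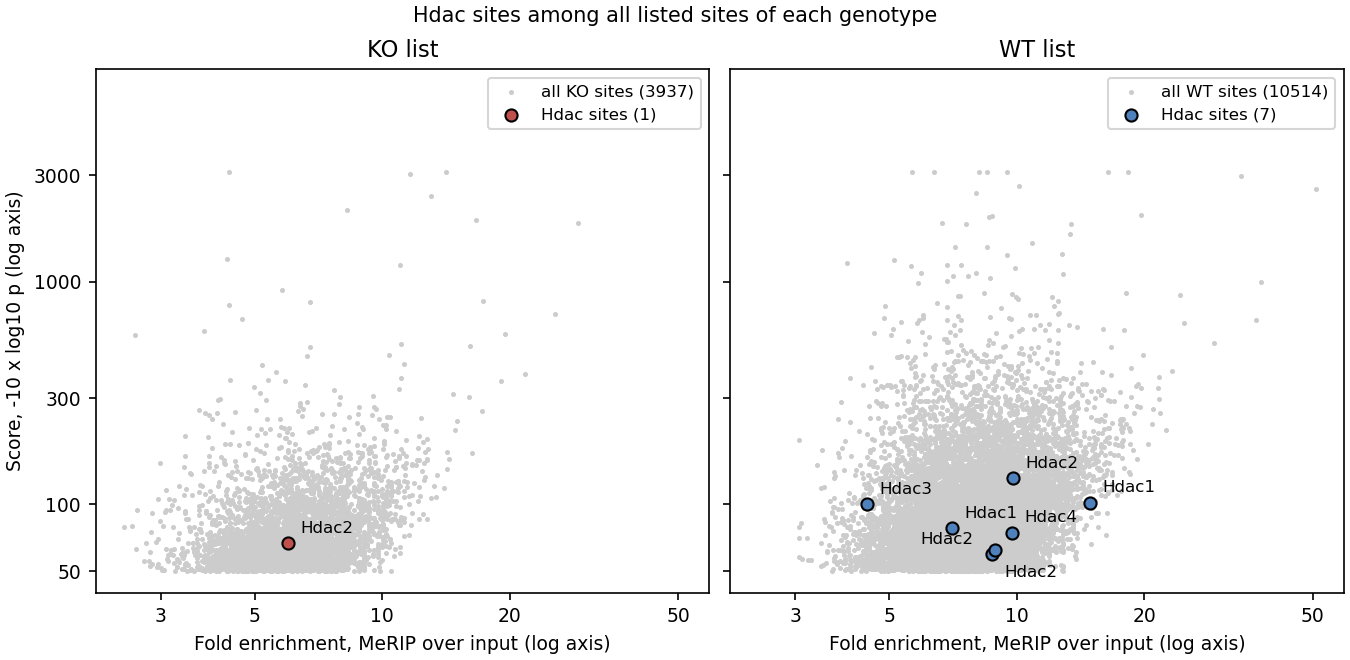
Fold enrichment of MeRIP over input (horizontal log axis) against score (vertical log axis) for every listed site in grey and for Hdac sites in colour, KO at left and WT at right. The KO site of Hdac2 lies inside the main cloud, and in WT the sites of Hdac3 (4.44) and Hdac1 (14.9) lie near the lower and upper edges of fold enrichment.

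The 6 members without a site included genes of every size. Hdac9, the class IIa gene with the longest span of the family (869516 bp), and Hdac8, a class I enzyme that acts on cohesin (220744 bp), had none, while the Hdac3 gene of 18045 bp had 1. Hdac5 and Hdac7, which encode the other class IIa enzymes, and Hdac6 and Hdac11 also had none. By class, 1 of the 4 class I genes had a KO site and 3 of the 4 a WT site. Of the 4 class IIa genes 0 had a KO site and 1 a WT site. Over all protein-coding genes these shares were 12.3% for KO and 22.6% for WT. With 4 genes in each, a difference between the classes was not tested. A site list holds no transcript levels, and in bulk tissue fewer cells that express a gene, less RNA per cell and less methylation cannot be told apart for a gene without a listed site.

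The names of the peaks show how far a missing site can be read. Each site carries a peak number, the numbers run in genome order in both lists, and no number is repeated. The highest number was 99502 in KO and 94812 in WT, so the listed sites were 3.957% of the highest number in KO and 11.09% in WT. If the numbers count all called peaks, most peaks were not listed. Between the nearest listed sites outside each Hdac gene, 12 to 91 numbers were without a listed site in KO and 12 to 59 in WT, with medians over the 10 genes of 39 in KO and 24.5 in WT. The windows spanned 0.178 to 4.84 Mb in KO and 0.172 to 4.42 Mb in WT. Each window ends at listed sites of its own genotype. The KO and WT counts of a gene therefore cover stretches of different length and are not directly comparable.

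For Hdac2 the numbers bear on the 2 sites missing from KO. In WT its 3 sites carry consecutive numbers, with 0 unlisted numbers between them. In KO 18 unlisted numbers followed the Hdac2 site before the next listed site, 2.04 Mb away in Lama4, and both missing intervals lie in that stretch. Under the same condition, whether an unlisted KO peak lies at those places is unknown. For Hdac1 the KO window held 32 unlisted numbers in 0.395 Mb and the shorter WT window 19 in 0.172 Mb. For Hdac3 these were 38 in 0.388 Mb in KO and 50 in 0.446 Mb in WT. For Hdac4 they were 57 in 0.944 Mb in KO and 28 in 0.669 Mb in WT. For none of the 10 members was the count of unlisted numbers 0, in KO or in WT. Listed sites were only 3.957% of the highest number in KO and 11.09% in WT. Wide windows could therefore hardly hold 0, and this is not a trait of the Hdac genes. If each number stands for a called peak, which the labels and headers do not state, absence from a list does not show that no peak was called in the gene.

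**Figure D3:**
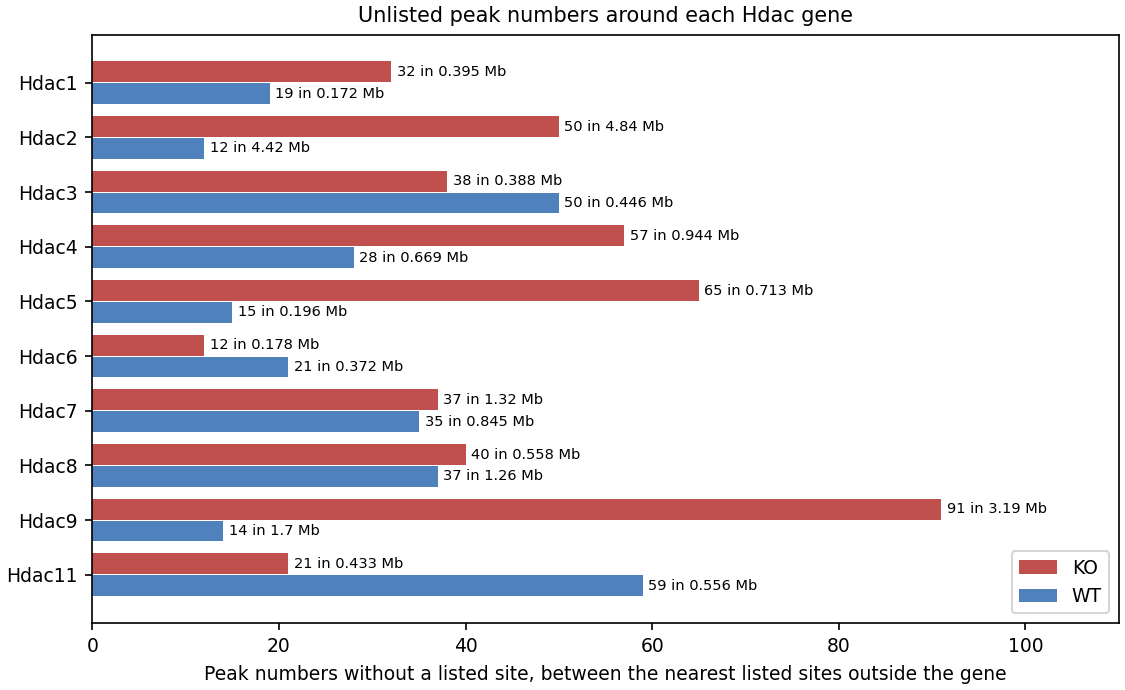
Number of peak numbers without a listed site in the window between the nearest listed sites outside each Hdac gene (horizontal bars, KO above WT), with the window's length in Mb. Every window holds at least 12 such numbers, and the highest is 91 for Hdac9 in KO.

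Genes with as many WT sites as each member show how often a KO site accompanied them. Of the 549 genes with 3 WT sites, Hdac2 among them, 51.7% had a KO site. This share was 40.2% of the 1060 genes with 2 WT sites, as in Hdac1, and 26.2% of the 2762 genes with 1, as in Hdac3 and Hdac4. The same combination as in Hdac2, 1 KO site and 3 WT sites, was found in 172 genes, of which 55.2% had an overlapping pair and 46.5% a pair with identical ends. Among these genes the nearest to Hdac2 in best WT fold enrichment (9.81) were Tbc1d2b (9.86) and then, at the same distance, Akt2 (9.75), Nsa2 (9.87) and Usp10 (9.87). Nsa2 alone of these 4 had an overlapping pair, and its best KO fold enrichment was 2.96, beside 5.99 in Hdac2. This likeness is in counts and 1 value per gene from 1 list per genotype and is given as a description.

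The genes whose products hold Hdac1, Hdac2 and Hdac3 in complexes were counted in the same way. Their list of 36 also holds Hdac10, a family gene rather than such a partner, which had no site in either genotype. Of 36 corepressor partner genes 18 had a KO site and 24 a WT site, and 12 had both, 50% of those with a WT site, beside 25% in the Hdac family and 37.9% over all genes with a WT site. Over all protein-coding genes, 12.3% had a KO site and 22.6% a WT site, and the counts of this and the next 3 lists stand beside these shares. Ncor1, a scaffold gene of the Hdac3 complex, had the most sites of these, 8 in KO and 13 in WT (best fold enrichment 7.58 in KO and 11.67 in WT). Hdac3 itself was thus listed in WT only while Ncor1 was listed in both genotypes. Also in both lists were Tbl1x of the same complex, the Sin3 complex genes Sap130 and Suds3, and the NuRD genes Mta2, Chd3, Mbd3 and Gatad2a, together with Phf21a, Mier1, Dnttip1 and Trerf1. Of the 12 genes 7 had an overlapping pair of sites, and the same share over all genes in both lists is not given here. Tbl1xr1, Sap30, Ing1, the NuRD helicase gene Chd4, Rcor2 and Mier2 were listed in KO only. Of the 18 partners with a KO site 12 thus had a WT site too, beside 69.4% of all KO-listed genes. The highest WT fold enrichments among partners listed in WT only were those of Sin3a, the scaffold of the Sin3 complex (11.62), Rcor1, the scaffold of CoREST (10.87), and Brms1 (10.75).

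Of 21 genes for partners and kinases of class IIa enzymes 4 had a KO site and 8 a WT site, and all 4 were in both lists, 50% of the WT-listed ones, beside 37.9% over all genes. These were Mef2a, which encodes a transcription factor bound by class IIa deacetylases (best fold enrichment 9.03 in KO and 6.74 in WT), the kinase genes Camk1d (14.66 in KO and 8.73 in WT) and Sik3 (7.18 in KO and 5.0 in WT), and Ankra2 (10 in KO and 6.71 in WT). In Sik3 and Ankra2 no KO site overlapped a WT site, so their KO and WT values come from different sites. Mef2a and Camk1d had an overlapping pair, but their best values need not come from it. In WT only, Ywhae (12.78), Ywhab (11.03) and Ywhah (7.13) were highest, which encode adaptor proteins that retain phosphorylated class IIa enzymes in the cytoplasm. Among 7 sirtuin genes, the NAD-dependent deacetylases, Sirt1 alone had a site, in KO (5.95). Of 17 genes of histone acetyltransferases and their subunits, which catalyse the opposite reaction, 5 had a KO site and 13 a WT site. The 5 were all in both lists and made up 38.5% of the WT-listed genes, near the 37.9% over all genes. They were Ep300 (5 KO and 3 WT sites), Crebbp (2 KO and 9 WT), Hat1 (3 KO and 1 WT), Brpf3 (2 KO and 1 WT) and Brd1 (1 KO and 2 WT). In WT only, Ing3 (17.83), Kat6a (12.93) and Kat8 (12.86) were highest. The median fold enrichment of KO sites was 5.99 in the Hdac family (1 site), 5.68 in the corepressor partners, 8.32 in the class IIa partners and 6.33 in the acetyltransferase list, beside 6.20 over the whole KO list. The median fold enrichment of WT sites was 8.89 in the Hdac family, 7.92 in the corepressor partners, 6.8 in the class IIa partners and 7.92 in the acetyltransferase list, beside 7.91 over the whole WT list. Whether these lists differ from the Hdac family was not tested. Hdac10, the remaining family gene, was counted among the partners and had no site.

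**Figure D4:**
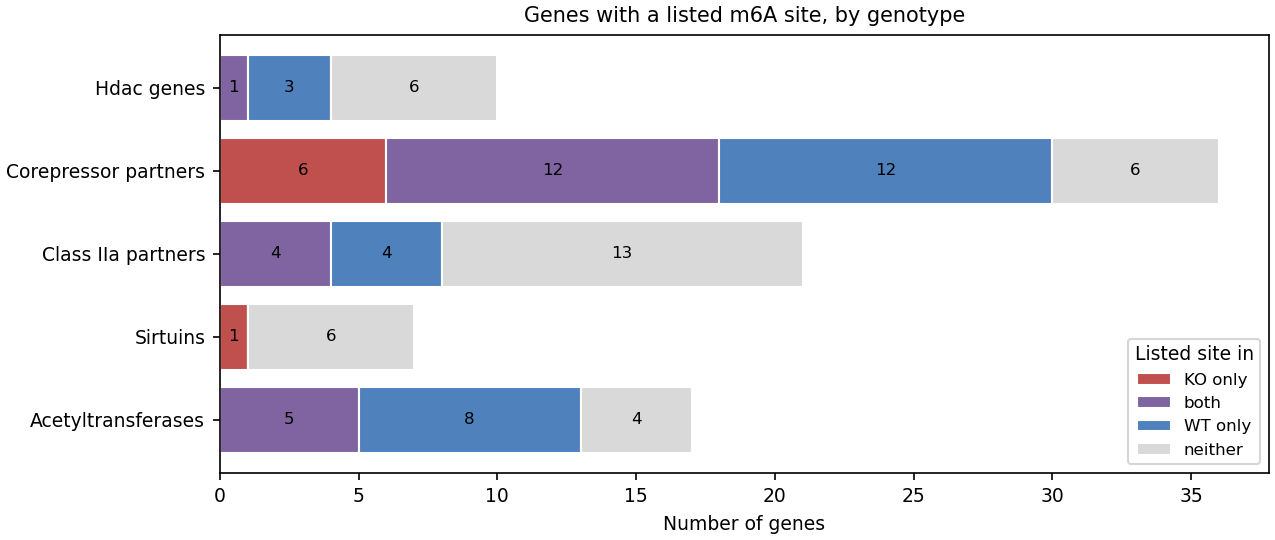
Number of genes (horizontal axis) with a listed site in KO only, in both genotypes, in WT only and in neither, for the 10 Hdac genes and the 4 related lists. The Hdac bar holds 1 gene in both and 3 in WT only, and the bar of the corepressor partners holds 6 in KO only, 12 in both and 12 in WT only.

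In the deposited annotation Hdac1 and Hdac2 are both assigned to 11 pathways, Notch signalling and the cell cycle among them. Of the WT-listed genes 10 of 23 for Notch (43.5%) and 19 of 45 for the cell cycle (42.2%) were listed in KO too, near the 37.9% of all WT-listed genes, and over the 11 pathways the share ran from 32 to 52.2%. In each of them Hdac2 is among the shared genes and Hdac1 among those listed in WT only. Cell type markers can be looked up by listing alone, which holds no transcript levels and so cannot check the label of the tissue. Their counts stand beside the 12.3% of protein-coding genes with a KO site and the 22.6% with a WT site. Of 8 pancreatic epithelium markers 2 had a KO site and 4 a WT site, and Pdx1, Ptf1a, Neurog3 and Cpa1 had none in either. Of 5 mesenchyme markers 3 had a KO site and 3 a WT site, with Col1a1 in KO only and Vim in WT only. Of 3 endothelial markers 1 was listed in both genotypes, and so was 1 of 4 blood markers. Of 2 liver markers 0 had a KO site and 2 a WT site. The part of these other cells in the Hdac sites was not tested. Mettl3 had 0 sites in both genotypes, so the deletion cannot be checked from the lists.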

How the data were processed

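Per the submitters' processing notes, cutadapt 1.9.3, HISAT2 2.0.4 and mm10 were used. Per the file headers, the authors deposited for each genotype a list of mRNA methylation sites whose peak names begin with MACS, a peak caller. The version of MACS and the step from called peaks to listed sites are not stated there. Per the file headers, the deposited score is -10 times the log10 p-value, the fold enrichment is a ratio, taken here as MeRIP over the input of the same genotype, and the false discovery rate, which reaches 100, was taken as a percent. No read counts were part of the lists, so depth is unknown.

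Members were matched on the gene name as deposited, and related lists on names updated by gene identifier (GRCm38). Starts were taken as 0-based and printed 1-based. Sites overlapped from 1 bp, without regard to strand. Strand came from a RefSeq promoter table that did not include Hdac1 or Hdac3. Tied values share their middle percentile. Intervals are exact binomial at 95% (scipy 1.17.1). The overlap code was tested on simulated intervals. The members and lists were chosen with earlier results of these data known. All members were named, and of each other list the genes in both lists, those in KO only and the 3 highest in WT only. 1 partner gene is not reported here and was left out of the counts of its list. Genes like Hdac2 were those with the same numbers of sites and the nearest best WT fold enrichment. The alternatives tried were limits on fold enrichment, false discovery rate and score, shortened WT lists, updated names and other overlap rules.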

Additional observations from a re-analysis of the deposited data

How the results depend on the processing

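The single KO site in Hdac2, the 1 Hdac gene with a KO site and the 1 Hdac gene listed in both genotypes had the same values under all 6 alternatives run on them (fold enrichment of at least 5, false discovery rate of at most 50%, the upper 75% of each list by score, the WT list shortened to 3937 sites by fold enrichment or by score, and updated names). Shortening the WT list leaves the KO list as it is, so those settings could not change the KO counts. Among the 3 WT sites of Hdac2 a low false discovery rate did not mark a stronger peak. How the rate relates to peak strength over the whole lists was not examined. The limit of 50% is therefore not read as a limit on peak strength. The number of WT sites in Hdac genes was 5 to 7 and that of Hdac genes with a WT site 3 or 4, except when the WT list was shortened by score, where 2 WT sites in 2 genes, Hdac1 and Hdac2, were left. The shared Hdac2 interval has a low WT score (percentile 18.5), so 0 WT sites were overlapped in KO both with the upper 75% by score and with the WT list shortened by score. Under the other 6 alternatives for the overlap, which include 50% of the shorter interval and identical ends, 1 was. The KO and WT intervals have the same ends, so these stricter overlap rules could not change the count. No paired analysis was possible because each genotype has 1 library of each kind. Read depth and the spread between embryos are unknown, which limits every value above.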
